A study of Mus musculus with 2 samples.

Results

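The cells described here were chosen by their own counts: they carried at least 2 unique molecular identifiers (UMIs, each counting 1 captured RNA molecule) of Mesp2 and Ripply2 together, and they numbered 345 of 19550 barcodes that passed the filters. They are called Mesp2/Ripply2 cells below. They came from pooled caudal tissue of embryonic day 8.5 mice (wild type, strain C57BL/6J), dissociated with TrypLE, an enzyme mix, and measured as 2 droplet libraries, replicates 1 and 2. No transgene, mutation or treatment is named, and no number of embryos is stated. The labels name endoderm, mesoderm and ectoderm and give no finer cell type, so the comparisons are between classes of cells in the same libraries. Pairs of values are given in the order replicate 1, replicate 2.

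A barcode was kept when it held at least 2000 UMIs and 1000 genes and between 0.3% and 10% mitochondrial UMIs. Replicate 1 gave 188 Mesp2/Ripply2 cells, 1.67% of 11228 kept barcodes (exact Clopper-Pearson 95% interval 1.45% to 1.93%), and replicate 2 gave 157, 1.89% of 8322 (1.61% to 2.20%). Kept barcodes without Mesp2 or Ripply2 UMIs and with at least 4 UMIs of Msgn1 and Tbx6 together are called posterior cells (1344 and 888). Those without Mesp2 or Ripply2 UMIs, with at least 4 UMIs of Tcf15 and Meox1 and at most 1 of Msgn1 and Tbx6, are called somite cells (635 and 537).

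Somites, the segments of the trunk, are cut from the front end of the presomitic mesoderm while the tail end supplies new cells. FGF and Wnt signals from the tail keep cells unsegmented, oscillating Notch signals set the pace, and retinoic acid is made in the somites. Mesp2, a basic helix-loop-helix factor, is known to switch on just ahead of the forming boundary and to set the front and back of the next segment, and Ripply2 is known as a repressor partner of T-box factors that ends Mesp2 expression. Msgn1 and Tbx6 are transcription factors of presomitic mesoderm, and Tcf15 and Meox1 are transcription factors of somites.

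The start sites of the genes that define the cells and of Lfng, a Notch pathway gene that stood above both neighbours, are shown by the 250 bases upstream of each (RefSeq, GRCm38.p6, 5′ to 3′ on the gene's strand). Capitals mark 3 motifs on either strand: the T-box core AGGTGT, the RBPJ core TGGGAA, which is the DNA letters read by the Notch effector, and the E-box CANNTG of basic helix-loop-helix factors.
Mesp2, chr7:79810477-79810726, + strand: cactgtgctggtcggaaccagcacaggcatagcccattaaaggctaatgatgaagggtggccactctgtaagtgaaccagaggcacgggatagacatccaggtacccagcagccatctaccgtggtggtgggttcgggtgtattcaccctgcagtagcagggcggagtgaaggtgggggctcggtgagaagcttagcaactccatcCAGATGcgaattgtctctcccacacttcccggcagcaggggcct
Ripply2, chr9:87015287-87015536, + strand: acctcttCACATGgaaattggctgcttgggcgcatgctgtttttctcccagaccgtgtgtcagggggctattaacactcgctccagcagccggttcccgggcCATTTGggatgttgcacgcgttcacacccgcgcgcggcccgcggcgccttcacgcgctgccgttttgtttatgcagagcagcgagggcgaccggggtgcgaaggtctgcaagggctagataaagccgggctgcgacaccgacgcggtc
Lfng, chr5:140607091-140607340, + strand: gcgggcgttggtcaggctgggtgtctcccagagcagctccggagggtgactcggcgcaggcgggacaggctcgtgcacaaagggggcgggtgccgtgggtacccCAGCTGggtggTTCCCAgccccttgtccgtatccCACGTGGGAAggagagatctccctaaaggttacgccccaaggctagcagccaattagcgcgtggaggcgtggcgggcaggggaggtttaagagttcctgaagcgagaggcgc
Mesp2 held 1 E-box and Ripply2 held 2, with neither a T-box nor an RBPJ core in these windows. Lfng held 2 RBPJ cores and 2 E-boxes, of which 1 overlapped an RBPJ core. Over all 32851 promoter windows of the same length, 11.8% held the T-box core, 21.6% the RBPJ core and 66.2% an E-box, so these matches are descriptions of letters. Among the windows of Mesp2, Ripply2 and 9 genes above both neighbours named below, 2 of 11 held a T-box core, 1 held an RBPJ core and 7 held an E-box.

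Mesp2 lies at chr7:79810727-79813439 (GRCm38, GENCODE M21, plus strand) and its relative Mesp1 on the minus strand 16939 bases away, with no overlap. Ripply2 lies at chr9:87015537-87019917, and its nearest counted neighbour, Cyb5r4, showed 62.8 and 58.4 CPM (the gene's UMIs scaled to a fixed total of UMIs per class and library) in Mesp2/Ripply2 cells against 62.9 and 64.0 in posterior cells.

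The cells were of ordinary depth. Their median was 17664.5 and 15603 UMIs, against 17092 and 14299 in posterior cells and 20302 and 16160 in somite cells. The libraries share 761 barcode sequences, and no sequence was a Mesp2/Ripply2 cell in both libraries. Among barcodes with endothelial or haemoglobin UMIs (at least 2 of Cdh5 and Pecam1 or 20 of Hba-x and Hbb-bh1), 9 of 440 and 18 of 613 had a Mesp2 or Ripply2 UMI, 2.05% and 2.94%, at median depths of 24247.5 and 17590 UMIs. Of these 1 and 11 reached the gate, 0.227% (exact interval 0.00575% to 1.26%) and 1.79% (0.899% to 3.19%), so in replicate 2 the share was close to the 1.89% of all kept barcodes. None of those with a Mesp2 or Ripply2 UMI lacked UMIs of Msgn1, Tbx6, Tcf15 and Meox1: leaving out every barcode with a UMI of those 4 genes left 313 and 446, with 0 in both libraries (upper bounds 1.17% and 0.824%). The latter cells, selected to lack paraxial UMIs, are the background used below, and the intervals cover counting error only. Scrublet, a doublet caller, marked 28 and 7 of the Mesp2/Ripply2 cells, 14.9% and 4.46%. It marked 16.2% and 5.63% of posterior cells and 14.6% and 3.35% of somite cells. Of all barcodes that passed the filters other than the lower mitochondrial bound, it marked 6.69% and 1.95%, against expected rates of 24.4% and 14.6%. The labels do not tie each library to its own embryos, so the p-values measure the spread between these libraries alone, which may be technical.

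Mesp2 and Ripply2 were counted together in only part of the cells. Mesp2 UMIs were present in 154 and 116 of them, with a median of 3 and 2 and a highest value of 58 and 38 UMIs in a cell. Ripply2 UMIs were present in 90 and 93, with a median of 0 and 1 and a highest value of 36 and 43. Both RNAs were counted in 56 and 52 cells, Mesp2 alone in 98 and 64, and Ripply2 alone in 34 and 41. The share with both RNAs was 10.1% and 14.5% at 2 to 3 UMIs of the pair and 61.8% and 53.8% at 12 or more. A count of 0 UMIs does not show that an RNA was absent, so Mesp2 alone and Ripply2 alone describe counts. These values chose the cells and are given as a description.

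**Figure D1:**
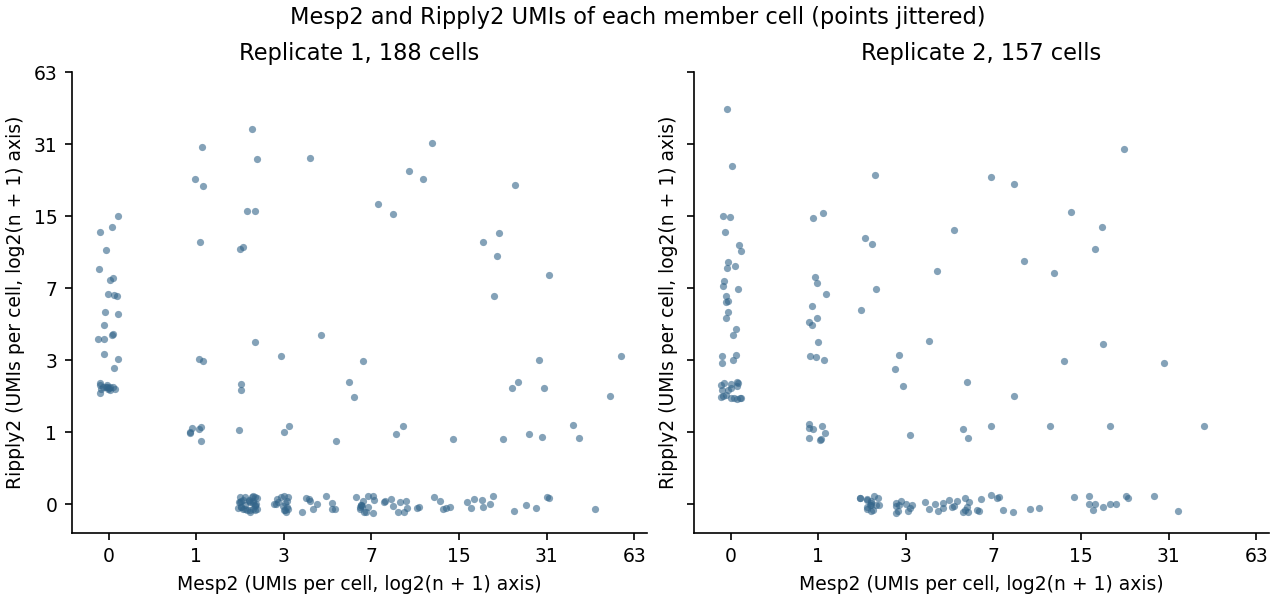
Each point is 1 Mesp2/Ripply2 cell, with its Mesp2 UMIs on the horizontal and its Ripply2 UMIs on the vertical axis (both on a log2(n + 1) scale, points jittered), for replicate 1 (188 cells) and replicate 2 (157 cells). Cells with Mesp2 alone lie along the bottom (98 and 64), cells with Ripply2 alone along the left edge (34 and 41), and the empty lower left corner is the gate of 2 UMIs.

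Just outside the gate, 311 and 189 kept barcodes had 1 UMI of the pair, and just inside it 50 and 41 had 2. A barcode with at least 2 UMIs of Msgn1, Tbx6, Tcf15 and Meox1 together is called paraxial here, and that described 65.6% and 79.9% of barcodes with 1 UMI, 82.0% and 92.7% with 2, and 100% of those with 12 or more in both libraries. Other genes differed along these bins in their own ways. Pcdh8, a protocadherin of the segment boundary, stood at 20.5 and 52.9 CPM in barcodes with 1 UMI, 107 and 127 with 2, and 340 and 348 with 12 or more. Lfng rose along the same bins from 38.1 and 64.7 through 68.2 and 76.5 to 186 and 216 CPM. Mesp1, the close relative of Mesp2, was at 8.66 and 5.22 CPM with 1 UMI, 10.7 and 4.42 with 2, and 248 and 154 with 12 or more, with the lower values near the gate. Cer1 did not follow the bins, at 12.8 and 53.2, 45.8 and 76.5, and 19.2 and 81.3 CPM.

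The genes that define the neighbouring classes were counted at levels between the 2, a description only, since the rule chose posterior and somite cells by these genes. Msgn1 was at 331 and 393 CPM in posterior cells, 63.3 and 40.5 in Mesp2/Ripply2 cells and 1.51 and 1.33 in somite cells. Tbx6 kept a larger part of its posterior level, at 129 and 102 CPM against 220 and 248. Tcf15 stood at 331 and 527 CPM against 40.5 and 46.7 in posterior and 742 and 729 in somite cells. Meox1 followed the same order at 241 and 435, 27.5 and 33.5, and 543 and 690 CPM. By the conditions used for the other classes, 68 and 33 of the cells met the posterior one, 60 and 71 the somite one, and 60 and 53 neither.

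The share of kept barcodes inside the gate was highest where both sets of genes were present. In replicate 1 it was 38.7% (24 of 62) at 1 to 3 UMIs of Msgn1 and Tbx6 with 4 to 9 of Tcf15 and Meox1, and 42.6% (26 of 61) at 4 to 9 with 10 or more. In replicate 2 the highest share, 40.0% (60 of 150), fell at 1 to 3 with 10 or more. Barcodes with none of these UMIs reached the gate in 4 of 6170 and 1 of 5134 cases. These shares were not compared at equal depth and are a description.

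**Figure D2:**
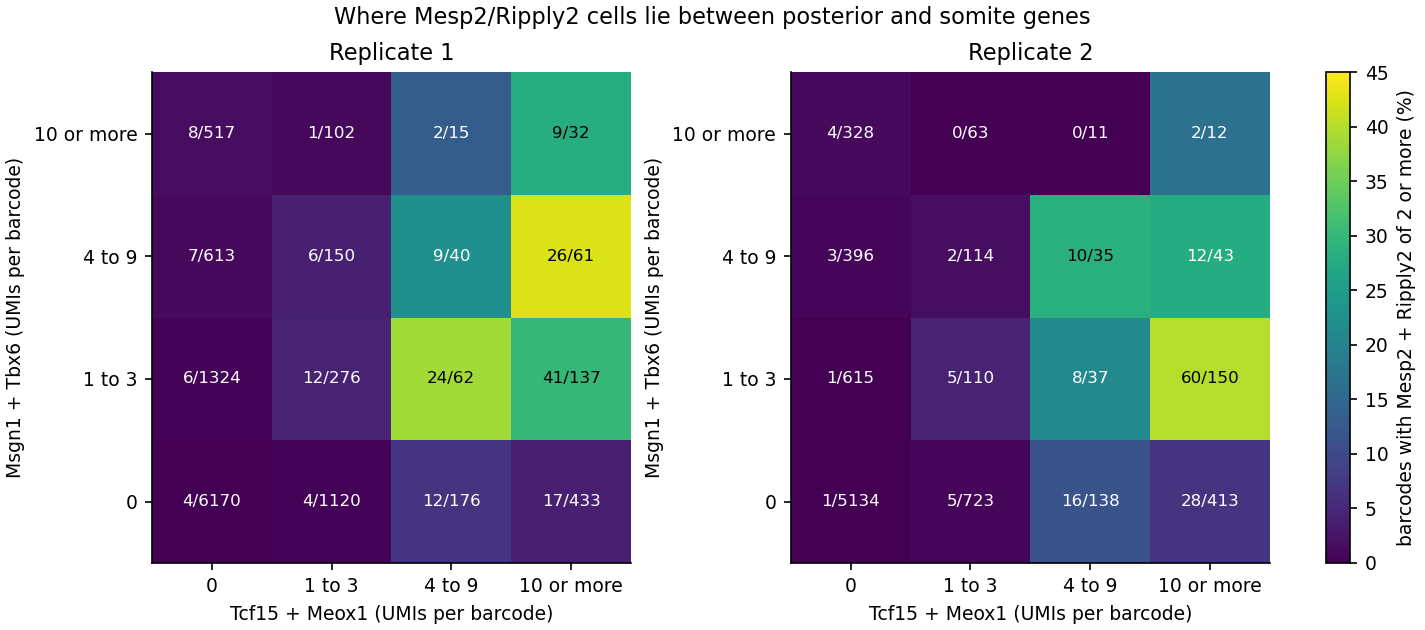
Share of kept barcodes with at least 2 Mesp2 and Ripply2 UMIs (colour, percent), by Tcf15 plus Meox1 UMIs (horizontal) and Msgn1 plus Tbx6 UMIs (vertical), for each library. Each tile gives barcodes inside the gate over all barcodes of that tile, and the brightest tiles (26 of 61 and 24 of 62 in replicate 1, 60 of 150 in replicate 2) hold UMIs of both gene pairs.

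Against posterior cells, 228 genes were higher and 183 lower in Mesp2/Ripply2 cells, 1.77% and 1.42% of 12915 tested (3.18% in either direction). Against somite cells, 189 were higher and 164 lower, 1.46% and 1.27% (2.73% in either direction). These calls have an adjusted p under 0.05 in edgeR's quasi-likelihood test on UMIs summed per class and library, with library as a block and Benjamini-Hochberg adjustment over all genes, and Mesp2, Ripply2, Msgn1, Tbx6, Tcf15, Meox1 and mitochondrial genes are left out. Unadjusted p-values under 0.05 numbered 2040 and 1943. Above both neighbours stood 51 genes (0.395%) and below both 5 (0.0387%), 0.434% in all. A further 24 (0.186%) lay above posterior and below somite cells, and 29 (0.225%) lay below posterior and above somite cells. Posterior and somite cells are compared with the same Mesp2/Ripply2 cells, so the sets share samples. Values after ± below are standard errors of log2 fold changes from the edgeR fit (n = 2 libraries per class). Each is the absolute log2 fold change divided by the square root of the test's F statistic. The fit moderates the spread across genes, so these errors can be narrower than the gap between the libraries. Fgf17 against posterior cells, for example, was -1.75 and -3.65 by library with ± 0.30. CPM here compares 1 gene across classes, not genes with each other. Without the library block 15 and 1 genes were called against posterior and 20 and 6 against somite cells.

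The genes of the segment boundary and of segment polarity, a list of 17, were led by Pcdh8, Mesp1 and Cer1. Pcdh8 was at 219 and 238 CPM in Mesp2/Ripply2 cells, 4.69 and 3.44 in posterior cells and 21.7 and 22.1 in somite cells, so that no library of one class overlapped another. Its log2 fold change was 5.71 ± 0.12 over posterior (adjusted p = 7.62e-07) and 3.37 ± 0.10 over somite cells (adjusted p = 3.92e-06). Mesp1 was at 136 and 77.2 CPM, against 6.71 and 1.32 in posterior and 2.42 and 1.77 in somite cells. It rose by 4.67 ± 0.26 on the log2 scale over the first (adjusted p = 0.000105) and 5.61 ± 0.31 over the other (adjusted p = 0.00013). At a fixed 5000 UMIs per cell, Mesp1 was counted in 37.6% and 22.1% of Mesp2/Ripply2 cells, 3.45% and 0.806% of posterior cells, and 0.333% and 0% of the background cells. Without thinning the Mesp1 shares were 53.2% and 39.5%, 9.45% and 1.69%, and 1.28% and 0%.

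Other boundary genes stood above posterior cells and did not differ from somite cells past the test. Cer1, a secreted inhibitor of BMP, Nodal and Wnt signals, was at 42.5 and 97.8 CPM against 1.28 and 3 in posterior cells, a log2 fold change of 4.92 ± 0.12 (adjusted p = 1.15e-06), and against 41.7 and 103 in somite cells, a difference of -0.02 ± 0.08 that did not pass the test. When only cells that met the same Tcf15, Meox1, Msgn1 and Tbx6 conditions were compared, Cer1 stood 0.93 above somite cells (adjusted p = 0.0148). Efnb2, an ephrin of the posterior part of each segment, was at 79.6 and 103 CPM against 13.1 and 11 in posterior cells (2.84 ± 0.19, adjusted p = 0.000216) and 61.8 and 97.8 in somite cells (0.22 ± 0.17, not past the test). Foxc2, a forkhead factor needed for segmentation, showed 267 and 375 CPM against 37.6 and 36.5 (3.08 ± 0.12, adjusted p = 1.10e-05) and against 281 and 304 in somite cells (0.12 ± 0.10, past the test in matched cells at 0.41). Its relative Foxc1 was above both, at 109 and 148 CPM against 28.8 and 49.9 in posterior and 65.8 and 94.9 in somite cells. Ntn1, the guidance ligand netrin, was at 48.9 and 84.0 CPM against 8.26 and 10.3 in posterior (2.77 ± 0.12, adjusted p = 3.14e-05) and 55.0 and 88.6 in somite cells. Fgf18, an FGF ligand, was at 21.4 and 34.8 CPM against 1.67 and 2.86 in posterior cells (3.53 ± 0.36, adjusted p = 0.00192). Over somite cells, at 4.83 and 22.3 CPM, Fgf18 did not pass (1.26 ± 0.32), but it did with DESeq2 (1.32), without the low-count filter (1.24), with a gate of 4 UMIs (1.58) and without marked doublets (1.33).

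Uncx and Tbx18, which mark the compartments of formed somites, were lower than in somite cells. Uncx, a homeobox gene of the posterior compartment, was at 2.40 and 18.3 CPM against 58.2 and 79.7 in somite cells (-2.90 ± 0.36, adjusted p = 0.00523). In the library where a single cell weighed most, that cell held 66.7% of the Uncx UMIs of Mesp2/Ripply2 cells. Tbx18, a T-box gene of the anterior compartment, was at 6.41 and 9.17 CPM, between 0.349 and 0.659 in posterior and 18.3 and 21.2 in somite cells. It passed the test in both directions (3.59 ± 0.30 and -1.34 ± 0.21, adjusted p = 0.000589 and 0.015), though the call against somite cells was lost in matched cells (-0.37) and after thinning (-1.66). Ripply1, the relative of Ripply2, was rare at 5.61 and 4.97 CPM and rose over posterior cells (3.03 ± 0.32, adjusted p = 0.00221), a call lost in matched cells (0.70) and after thinning (1.33). Epha4, an ephrin receptor, was at 56.6 and 87.5 CPM, close to the 64.8 and 87.6 of posterior cells (-0.10 ± 0.13, not past the test) and above the 18.9 and 38.6 of somite cells (1.36 ± 0.14, adjusted p = 0.00218, lost after thinning at 0.85). In all, 9 of the 17 boundary and polarity genes were higher and 2 lower than in posterior cells, with a median log2 of 1.75 beside 0.00 over all genes tested. Against somite cells 4 were higher and 4 lower, with a median of 0.12 beside 0.00. Against posterior cells Efna1 and Cdh11 were the lower genes, Kitl, Tspan12, Cdh2, Dact2, Uncx and Epha4 did not pass, and Mesp1, Pcdh8, Foxc1 and Epha4 were the ones above somite cells.

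**Figure D3:**
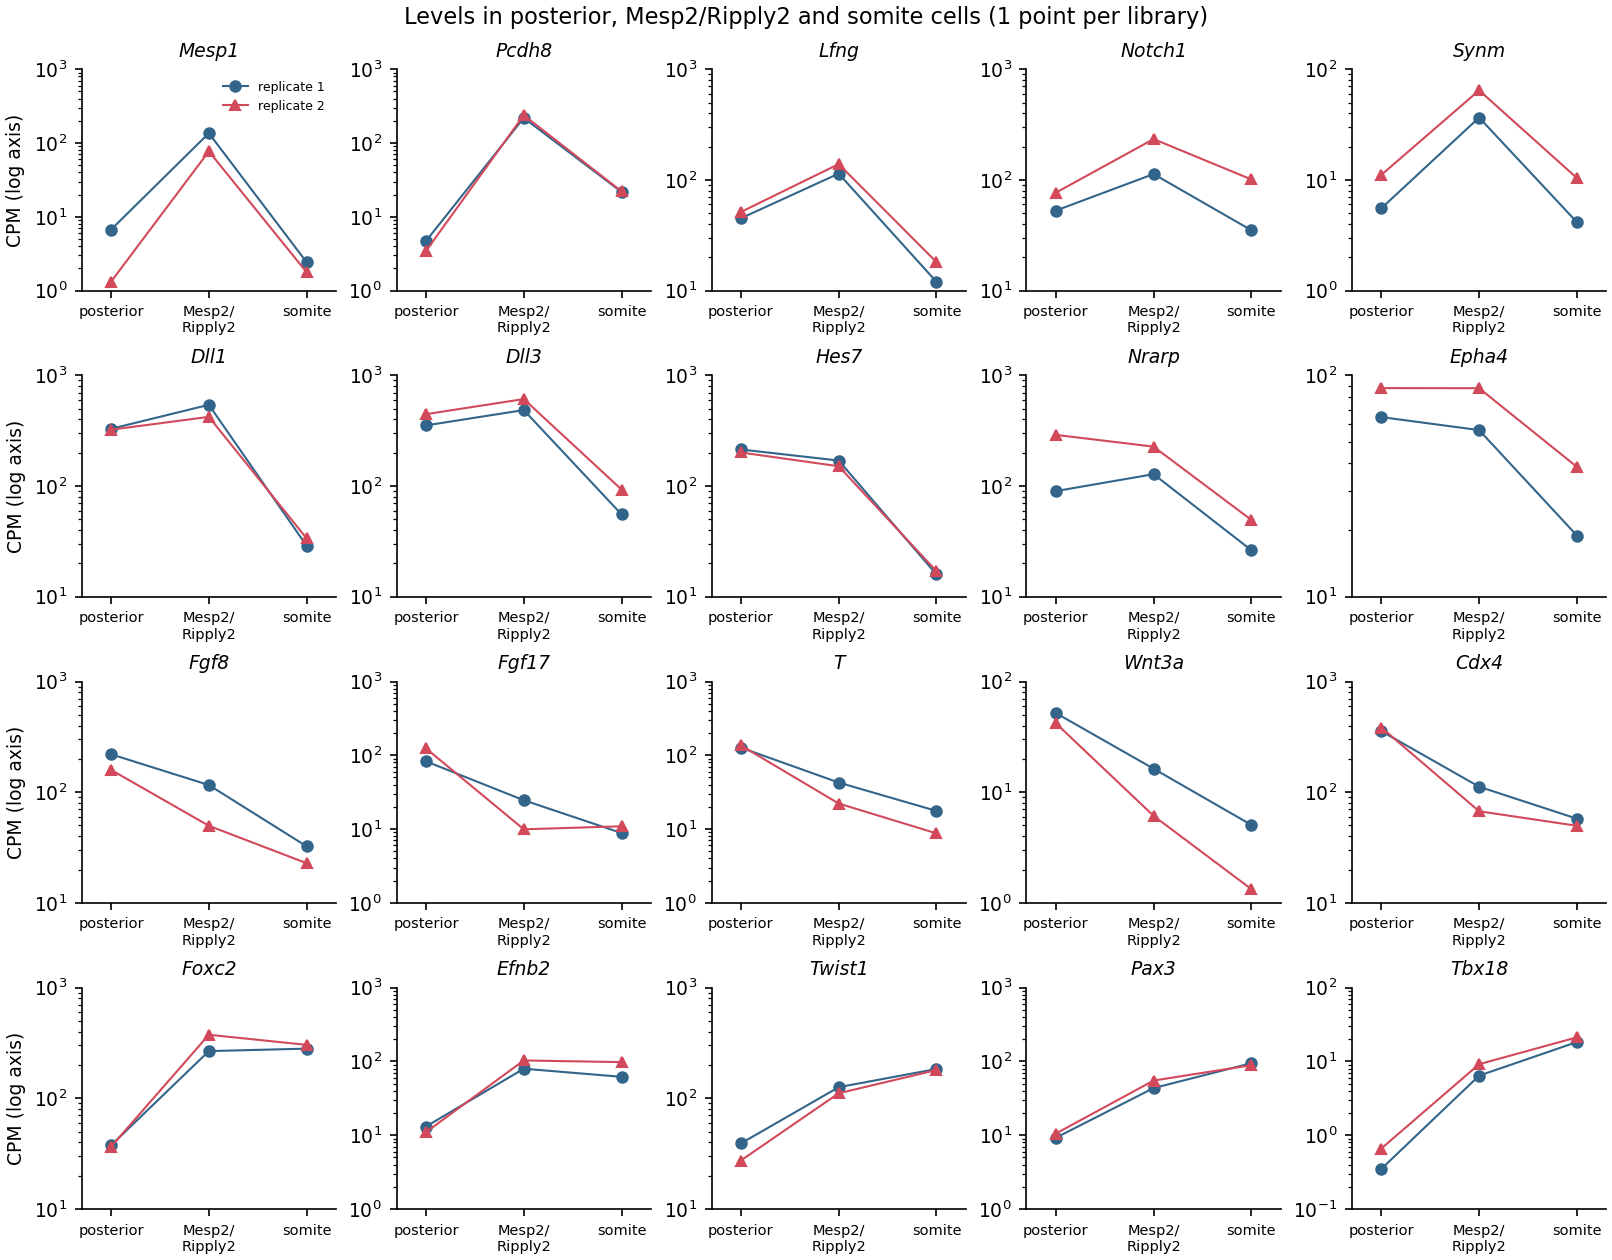
CPM of 20 genes (vertical, log axes that differ between panels) in posterior, Mesp2/Ripply2 and somite cells, with 1 point per library (circles replicate 1, triangles replicate 2) and lines joining the points of a library. The top row peaks in the Mesp2/Ripply2 cells (Pcdh8 219 and 238). The second row drops in somite cells (Hes7 170 and 151, then 15.9 and 17.0), with Dll1 and Dll3 also above posterior cells. The third row is highest and the bottom row lowest in posterior cells.

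Of the Notch and clock genes, Dll1, Dll3, Lfng and Notch1 were above both neighbours, Notch2 was above posterior cells alone, and the oscillating repressor Hes7 was not above its posterior level. Dll1, the main ligand of presomitic mesoderm, was at 542 and 422 CPM against 329 and 323 in posterior and 28.8 and 33.6 in somite cells. It was higher than in either (0.57 ± 0.10, adjusted p = 0.0228, and 3.96 ± 0.12, adjusted p = 3.92e-06). Dll3, a relative that dampens Notch signalling, was at 486 and 611 CPM against 353 and 446 (0.46 ± 0.08, adjusted p = 0.0262, lost after thinning at 0.24) and 55.4 and 92.9 in somite cells (2.92 ± 0.09). Lfng, which adds sugars to the Notch receptor, was at 114 and 139 CPM against 45 and 51.3 in posterior cells (1.39 ± 0.09, adjusted p = 0.000212) and 12 and 18.1 in somite cells (3.08 ± 0.11, adjusted p = 7.16e-06). The receptor Notch1 was at 113 and 234 CPM against 52.8 and 76.6 in posterior and 35.1 and 101 in somite cells. The lowest Mesp2/Ripply2 library of Notch1, 113, was above the highest of the others, 101, and within each library it was higher in Mesp2/Ripply2 cells than in either neighbour (1.34 ± 0.19 and 1.42 ± 0.19, adjusted p = 0.00752 and 0.00708). Notch2, a second receptor gene, was at 38.7 and 65.3 CPM against 16.5 and 25.2 in posterior cells (1.29 ± 0.12, adjusted p = 0.0013) and 32.2 and 65.6 in somite cells (0.13 ± 0.12, not past the test).

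Hes7, the repressor at the centre of the segmentation clock, was at 170 and 151 CPM against 214 and 201 in posterior cells, a difference of -0.36 ± 0.07 (adjusted p = 0.03) that lost its call after thinning (-0.37), without marked doublets (-0.39) and in matched cells (0.07). Against the 15.9 and 17.0 CPM of somite cells it was higher by 3.29 ± 0.08 on the log2 scale (adjusted p = 3.79e-06). At 5000 UMIs, Hes7 was counted in 48.6% and 39.6% of Mesp2/Ripply2 cells, 59.2% and 53.7% of posterior cells and 7.02% and 6.74% of somite cells. The background cells held Hes7 in 4.67% and 3.26%, and unthinned shares in Mesp2/Ripply2, posterior, somite and background cells were 73.9% and 67.5%, 83.7% and 78.9%, 16.4% and 16.8%, and 11.8% and 11%. Nrarp, a feedback inhibitor of Notch, differed between libraries in its order: it was at 128 against 90.0 CPM in posterior cells of replicate 1 and at 227 against 290 in replicate 2. Over somite cells, at 26.3 and 49.4 CPM, Nrarp was higher by 2.24 ± 0.21 (adjusted p = 0.00148). The targets Hes1 (27.0 and 39.7 CPM), Hey1 (20.8 and 40.9), Hey2 (2.14 and 3.06) and Heyl (0.801 and 4.2) did not pass the test against either class, nor did the effector Rbpj, the ligand Jag1 or Mfng. Heyl passed against posterior cells without the low-count filter (1.96) and without marked doublets (2.16). Dkk1, a secreted Wnt inhibitor, was at 21.1 and 8.78 CPM against 51.1 and 125 in posterior cells and missed the threshold (-2.30 ± 0.50, adjusted p = 0.0549), which it passed in 6 alternatives at -2.30 to -3.41. Of the 18 Notch and clock genes, 5 were higher and 2 lower than in posterior cells (median log2 0.16 beside 0.00 over all genes) and 8 were higher and 0 lower than in somite cells (median 0.56 beside 0.00). The lower genes against posterior cells were Hes7 and Nkd1, an inhibitor of Wnt signalling that oscillates with the clock, at 74.0 and 52.7 CPM against 131 and 103. Hes5 and Maml3 were above somite cells as well, with both calls lost after thinning and in matched cells.

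The genes above both neighbours were of several kinds. Among those with at least 20 CPM in each library and the same sign in both, the leading ones by the smaller of their 2 fold changes were Mesp1, Pcdh8, Synm, Gadd45g, Camk2n1, Ptprz1, Pdhx, Lfng, Pcdh19 and Notch1. Synm, which encodes an intermediate filament protein, was at 36.6 and 64.5 CPM against 5.54 and 11.1 in posterior cells (2.60 ± 0.15) and 4.15 and 10.4 in somite cells (2.83 ± 0.16). Gadd45g, a stress-response gene, was at 114 and 107 CPM against 15.4 and 17.4 (2.77 ± 0.14) and 20.2 and 29.9 (2.18 ± 0.14). Camk2n1, an inhibitor of a calcium-dependent kinase, was at 38.2 and 41.6 CPM against 6.98 and 3.44 (2.87 ± 0.24) and 10.1 and 8.96 (2.05 ± 0.24). Pcdh19, a second protocadherin, was at 282 and 251 CPM against 110 and 96.5 (1.37 ± 0.13) and 59.6 and 81.4 (1.94 ± 0.14). Ptprz1, a receptor phosphatase, and Pdhx, a subunit of the pyruvate dehydrogenase complex, had log2 fold changes between 1.40 and 1.59 against both classes. For each of these genes every library of Mesp2/Ripply2 cells stood above both classes of the same library, which the naming rule required.

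**Figure D4:**
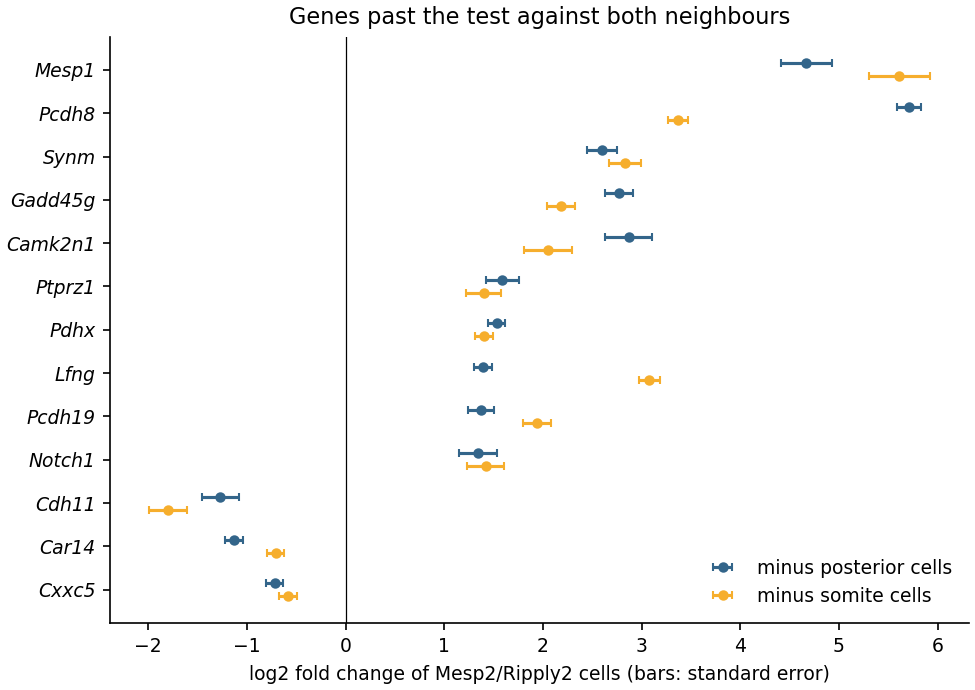
Log2 fold changes of Mesp2/Ripply2 cells over posterior cells (blue) and over somite cells (yellow), with standard errors from the edgeR fit (n = 2 libraries per class), for genes past the test against both. Mesp1 and Pcdh8 stand furthest right, and Cdh11, Car14 and Cxxc5 are the genes to the left of 0.

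The remaining genes above both included Zic2, a zinc-finger factor, at 99.1 and 154 CPM against 14.8 and 20.9 in posterior cells (2.81 ± 0.08, adjusted p = 2.21e-06) and 48.6 and 71.2 in somite cells. Smoc1, a secreted calcium-binding protein, is named here after its values were seen, at 331 and 302 CPM against 144 and 116 and against 103 and 102. The 5 genes below both neighbours were Cdh11, Car14, Cxxc5, Apoc2 and Hbb-y. Cdh11, a mesenchymal cadherin, was at 12 and 18.3 CPM against 34.9 and 36.8 in posterior cells (-1.27 ± 0.19, lost in matched cells at -0.92) and 55.8 and 46.9 in somite cells (-1.80 ± 0.19). Car14, a membrane carbonic anhydrase, was at 63.3 and 68.0 CPM against 131 and 160 and against 106 and 109. Cxxc5, a zinc-finger protein, was at 34.7 and 43.2 CPM against 55.4 and 74.6 and against 48.8 and 69.0, the latter call lost after thinning (-1.11). Apoc2 and Hbb-y each rested on 1 library: Apoc2, an apolipoprotein, had 4 and 0 UMIs in Mesp2/Ripply2 cells with 36.7 and 0.146 CPM in posterior cells, and Hbb-y, an embryonic globin, was at 0 and 230 CPM with 0.0388 and 343 in posterior cells.

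Most genes of the tail end were lower in Mesp2/Ripply2 than in posterior cells, and a minority were above somite cells. Of 20 tail-end and caudal genes, 0 were higher and 16 lower than in posterior cells, with a median log2 of -1.54 beside 0.00 over all genes. Fgf8, the main FGF ligand of the tail, was at 116 and 49.7 CPM, against 220 and 159 in posterior and 32.4 and 22.8 in somite cells (-1.20 ± 0.15 and 1.58 ± 0.17, adjusted p = 0.00435 and 0.00256). Fgf17, another ligand, was at 24.6 and 9.93 CPM against 82.8 and 124 in posterior cells (-2.43 ± 0.30, adjusted p = 0.00422). T, the Brachyury factor of the tail and notochord, was at 42.7 and 22.2 CPM against 127 and 136 (-1.98 ± 0.25, adjusted p = 0.00518) and 17.6 and 8.74 in somite cells (1.29 ± 0.32, not past the test). Wnt3a, the Wnt ligand of the tail, was at 16.3 and 6.11 CPM against 51.9 and 42.0 (-2.03 ± 0.30, adjusted p = 0.00995, lost in matched cells at -1.37). Rspo3, which enhances Wnt signals, was at 196 and 129 CPM, between 357 and 427 in posterior and 44.2 and 31.7 in somite cells, and passed the test against both (-1.27 ± 0.18 and 2.09 ± 0.21).

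Of the caudal homeobox genes, Cdx4 and Cdx2 were lower and Cdx1 did not pass the test (0.02 ± 0.27, with 0.07 in replicate 1 and -0.45 in replicate 2). Cdx4 was at 112 and 67.2 CPM against 356 and 384 in posterior cells (-2.02 ± 0.16, adjusted p = 0.000534), and Cdx2 at 129 and 57.3 against 302 and 252 (-1.60 ± 0.18). Cyp26a1, the enzyme that breaks down retinoic acid in the tail, was at 37.9 and 21.4 CPM against 138 and 206 (-2.43 ± 0.25, adjusted p = 0.00201). Mixl1, a homeobox gene of the primitive streak, was at 3.74 and 2.29 CPM against 28.6 and 25.6, the most negative log2 fold change against posterior cells apart from Apoc2 among the genes named (-3.05 ± 0.24, adjusted p = 0.000483). Sct, the gene of the hormone secretin, fell by 2.80 on the log2 scale (± 0.30), and Uap1l1, Gm53, Efna1 and Evx1os fell by between 2.05 and 2.31. Evx1os lies antisense to Evx1, and the strand used in counting is not stated in the sources, so their reads may be shared. Against somite cells 6 of the 20 tail-end genes were higher (Fgf8, Fgf4, Fgf3, Wnt5a, Rspo3 and Evx1) and 0 lower, with a median of 0.74 beside 0.00. Fgf3 lost that call after thinning (1.07). For Fgf4 this rested on 28 against 3 UMIs in replicate 1, a ratio of 33.0 (exact interval 10.2 to 170, counting error only), and it turned in matched cells (-0.47). The Evx1 call was lost after thinning (-1.67), with a gate of 4 UMIs (0.21), without marked doublets (1.14) and in matched cells (0.10).

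Most FGF and Wnt pathway genes outside these ligands did not pass the test. Among 14 FGF receptors and feedback genes, Fgfr1 was higher than in posterior cells, at 133 and 117 CPM against 83.2 and 78.1, and the feedback genes Dusp4, Spry4 and Il17rd were lower (median of the list 0.00, as over all genes). The calls of Fgfr1 and Spry4 were lost in matched cells (0.45 and -0.80) and after thinning (0.40 and -0.85). Dusp4, a phosphatase of the ERK pathway, was at 81.7 and 56.1 CPM against 149 and 150 (-1.08 ± 0.16, adjusted p = 0.0121). Among 18 Wnt targets and modulators, 2 were higher (Fzd2 and Tcf7l2) and 5 lower (Tcf7, Notum, Apcdd1, Fzd10 and Ccnd2), with a median of -0.22 beside 0.00. Tcf7 lost its call in matched cells (-0.22), after thinning (-0.32) and with DESeq2 (-0.48), and Tcf7l2 in matched cells (0.89). Lef1, a Wnt effector, was at 288 and 521 CPM against 116 and 204 in somite cells (1.34 ± 0.10, adjusted p = 0.000655).

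In the retinoic acid list, 2 of 12 tested genes were higher and 1 lower than in posterior cells (median 0.14 beside 0.00), and 1 was lower than in somite cells (median -0.13 beside 0.00). Aldh1a2, the enzyme that makes retinoic acid, was at 503 and 70.3 CPM against 71.0 and 15.2 in posterior and 854 and 213 in somite cells. Aldh1a2 was lower in every class of replicate 2, and the order posterior, Mesp2/Ripply2, somite was the same in both libraries (2.65 ± 0.16, adjusted p = 0.000154, and -1.05 ± 0.15, adjusted p = 0.00858, the second call lost in matched cells at -0.55). Rarb, a retinoic acid receptor, rose (1.40 ± 0.28, adjusted p = 0.0396, lost with DESeq2 at 1.34, after thinning at 1.35 and in matched cells at 1.07) and Rarg, another, fell (-1.23 ± 0.12, adjusted p = 0.00162) against posterior cells.

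Somite transcription factors were partly on. Of 17 tested, 11 were higher and 0 lower than in posterior cells (median 1.75 beside 0.00), while 1 was higher and 10 were lower than in somite cells (median -0.91 beside 0.00). Pax3, a paired-box factor of the dermomyotome, was at 43.5 and 55.0 CPM, between 9.22 and 10.5 in posterior and 94.6 and 88.8 in somite cells (2.30 ± 0.14, adjusted p = 0.00014, and -0.91 ± 0.12, adjusted p = 0.00597, the second lost in matched cells at -0.25). Twist1, a factor of mesenchyme, was at 126 and 111 CPM, between 39.1 and 27.4 and 184 and 180. Meox2, the relative of Meox1, was at 8.28 and 18.7 CPM, between 1.12 and 1.17 and 32.5 and 47.0.

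Forkhead and other transcription factor genes were among those far below somite cells. Foxd2, a forkhead factor, was at 1.07 and 2.67 CPM against 34.6 and 32.1 (-4.14 ± 0.36, adjusted p = 0.000974), with Foxd2os, its antisense neighbour, at 2.40 and 5.35 against 33.1 and 37.6. Foxd1, a relative of Foxd2, was at 32.0 and 47.4 CPM against 201 and 158 (-2.21 ± 0.18, adjusted p = 0.00071). Dmrt2, a factor of the dermomyotome, was at 9.61 and 13.0 CPM against 55.0 and 51.7 (-2.25 ± 0.21). Dact2, an inhibitor of Wnt and TGF-beta signals, was at 14.7 and 18.0 CPM against 70.4 and 69.1 (-2.11 ± 0.20). Itih5, Selenop and Depdc7 fell by between 2.28 and 2.63 on the same scale. On the higher side against somite cells, besides the Notch genes, were Ddit4, a stress-induced inhibitor of the mTOR pathway, at 188 and 206 CPM against 22.5 and 31.5 (2.88 ± 0.15, adjusted p = 7.17e-05), and the predicted gene Gm38287 at 24.8 and 77.9 against 4.53 and 16.5.

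Adhesion and matrix genes of 26 listed moved in few cases against posterior cells, with 3 higher (Pcdh8, Pcdh19 and Zeb2) and 2 lower (Cdh11 and Lamc1), and a median of -0.02 beside 0.00. Against somite cells 7 were higher and 1 lower (median -0.08). Among the 7 were Fn1, the fibronectin gene, at 429 and 663 CPM against 282 and 362 (0.74 ± 0.07, adjusted p = 0.00099), Itga5, its integrin receptor, at 39.8 and 48.5 against 22.5 and 29.8, Lama1, a laminin chain, at 40.3 and 72.2 against 14.4 and 33.1, and Snai1, a repressor of epithelial genes, at 125 and 85.9 against 56.3 and 33.8. The cadherin gene Cdh2, named in the boundary list, was at 113 and 135 CPM against 140 and 173 in posterior and 89.8 and 126 in somite cells and did not pass either test, though against posterior cells it did without the low-count filter (-0.35), with a gate of 4 UMIs (-0.38), without marked doublets (-0.36) and among paraxial barcodes only (-0.33).

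No gene of the cell cycle lists passed the test. Of 17 S phase genes, 0 were higher or lower in either comparison (medians 0.03 and -0.03), and of 15 G2/M genes 0 (medians -0.01 and 0.01). Over all genes tested, 3.18% were called against posterior and 2.73% against somite cells. Lists of this size can hold no called gene at those shares, so these counts do not show an unchanged cell cycle. Cdk1, the mitotic kinase, differed by 0.12 ± 0.05 from posterior and 0.19 ± 0.05 from somite cells. In alternatives, Mcm5 passed against somite cells without the low-count filter (-0.25), without marked doublets (-0.29), with a gate of 4 UMIs (-0.35) and in matched cells (-0.40), and Mcm2, Cdt1, Uhrf1 and Ube2c each passed in 1 or 2 alternatives with differences from -0.31 to -0.22. Of 16 tested BMP and TGF-beta genes, Msx1 and Msx2 were lower than in posterior cells and Fst and Tgfb2 lower than in somite cells. None was higher, and the list medians were -0.36 and -0.12 beside 0.00. Over all genes tested, 1.42% were lower than in posterior and 1.27% lower than in somite cells. Msx2, a target of BMP, was at 26.2 and 19.5 CPM against 73.8 and 58.7 (-1.54 ± 0.19, adjusted p = 0.00413), and Fst, an inhibitor of activin, at 69.7 and 60.7 against 311 and 98.9 (-1.56 ± 0.27, adjusted p = 0.0226, lost with DESeq2 at -1.42). The calls of Msx1 (-0.91) and Tgfb2 (-0.62) were lost in matched cells, and that of Tgfb2 also after thinning (-1.49).

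Within the Mesp2/Ripply2 cells, those with Ripply2 alone differed from those with Mesp2 alone. In this comparison 47 genes were higher and 34 lower in Ripply2-only cells, 0.559% and 0.404% of 8410 tested (0.963% in either direction), with 689 at an unadjusted p under 0.05. Cer1 was at 167 and 141 CPM in Ripply2-only cells (34 and 41 cells), 34.9 and 157 in cells with both RNAs and 3.68 and 13.0 in Mesp2-only cells (98 and 64 cells). Its log2 fold change was 4.06 ± 0.43 (adjusted p = 4.37e-06). Pcdh8 was at 528 and 375 CPM, 349 and 334 with both and 30.5 and 53.2 with Mesp2 alone (3.51 ± 0.18, adjusted p = 1.03e-11). Zic2 was at 188 and 226, 130 and 184, and 48.9 and 77.2 CPM (1.73 ± 0.15, adjusted p = 1.05e-07). For these 3 genes cells with both RNAs stood above Mesp2-only cells in each library.

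Mesp1 moved the other way. It was at 147 and 109 CPM in Mesp2-only cells, 186 and 97.7 with both and 15.1 and 2.90 with Ripply2 alone, where it had 10 and 2 UMIs (-3.56 ± 0.28, adjusted p = 4.29e-08). At 5000 UMIs, Mesp1 was counted in 40.2% and 36.5% of Mesp2-only cells and 14.7% and 0% (upper bound 8.81%) of Ripply2-only cells, and without thinning in 54.1% and 51.6% against 20.6% and 4.88%. Dll1 was at 561 and 595 CPM in Mesp2-only cells and 194 and 152 in Ripply2-only cells (-1.70 ± 0.15, adjusted p = 1.34e-07). Ddit4 was at 253 and 356 against 51.2 and 66.7 (-2.30 ± 0.16, adjusted p = 5.41e-09). Nrarp, at 158 and 324 against 64.7 and 129 (-1.27 ± 0.14, adjusted p = 4.85e-06), and Hes5, at 31.5 and 23.1 against 7.53 and 8.70 (-1.54 ± 0.36, adjusted p = 0.0358), were lower as well.

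Notch genes moved in both directions within the cells. The ligand Dll1 and the targets Nrarp and Hes5 were lower in Ripply2-only cells, while the receptors Notch1 (155 and 275 CPM against 70.4 and 178, 0.85 ± 0.14, adjusted p = 0.00155) and Notch2 (69.2 and 79.7 against 26.3 and 46.1, 1.04 ± 0.21, adjusted p = 0.0113) were higher. Of 15 Notch and clock genes tested, these 2 were higher and those 3 lower (median -0.46 beside 0.00). Lfng was highest where both RNAs were counted, at 206 and 192 CPM, against 71.4 and 134 in Mesp2-only and 72.3 and 72.5 in Ripply2-only cells, and the latter pair did not differ past the test (-0.41 ± 0.22). Hes7 was at 164 and 153 CPM in Mesp2-only cells, 194 and 143 with both and 146 and 159 with Ripply2 alone (-0.04 ± 0.14, not past the test).

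Several somite and polarity genes were higher in Ripply2-only cells. Of the genes in this paragraph, only Cer1, Pcdh8, Mesp1 and Meox2 were followed singly through the alternatives in this comparison. Of 16 boundary and polarity genes tested, 5 were higher (Epha4, Cer1, Pcdh8, Tbx18 and Foxc2), Mesp1 was lower and 10 did not pass, with a median of 0.11 beside 0.00. Of 13 somite factors tested, 7 were higher (among them Meox2, Pax3, Foxc2, Tbx18, Twist1 and Sox9) and 0 lower, with a median of 0.70 beside 0.00. Twist1 was at 184 and 145 CPM against 85.1 and 78.2 in Mesp2-only cells (1.02 ± 0.14, adjusted p = 0.000202). Tbx18 was at 22.6 and 17.4 against 1.58 and 1.00, a difference of 2.73 ± 0.48 (adjusted p = 0.00267). Only 2 of 98 and 1 of 64 Mesp2-only cells held a Tbx18 UMI. Epha4 was at 91.8 and 152 against 43.6 and 40.1 (1.43 ± 0.19, adjusted p = 0.000142). Aldh1a2 was at 590 and 88.4 against 392 and 45.1 (0.66 ± 0.10, adjusted p = 0.000694). Tcf15, which did not choose these subsets, was higher at 450 and 512 against 230 and 450 (0.57 ± 0.12, adjusted p = 0.0158), and Meox1 was at 197 and 433 against 227 and 331 (0.13 ± 0.11, not past the test).

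Tbx6 and Msgn1 were lower in the same cells. Tbx6 was at 67.7 and 59.4 CPM against 139 and 150 (-1.12 ± 0.20, adjusted p = 0.00325), and Msgn1 at 37.6 and 15.9 against 73.0 and 77.2 (-1.37 ± 0.31, adjusted p = 0.0317). With a gate of 4 UMIs Msgn1 no longer differed past the test and its sign turned (0.66), and with no lower mitochondrial bound the call was lost (adjusted p = 0.0715). The condition for somite cells was met by 58.8% and 65.9% of Ripply2-only cells, 30.4% and 51.9% of cells with both RNAs and 23.5% and 26.6% of Mesp2-only cells, and the condition for posterior cells by 17.6% and 9.76%, 39.3% and 13.5%, and 40.8% and 34.4%. Exact intervals for single libraries were wide (40.7% to 75.4% for the first of these shares). Fgf8, T and Wnt3a did not pass the test between the subsets, and of 19 tail-end genes tested 0 were higher and 2 (Rspo3 and Sp5) lower. The median of that list was -0.17 beside 0.00, and over all genes tested 0.559% were higher and 0.404% lower.

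**Figure D5:**
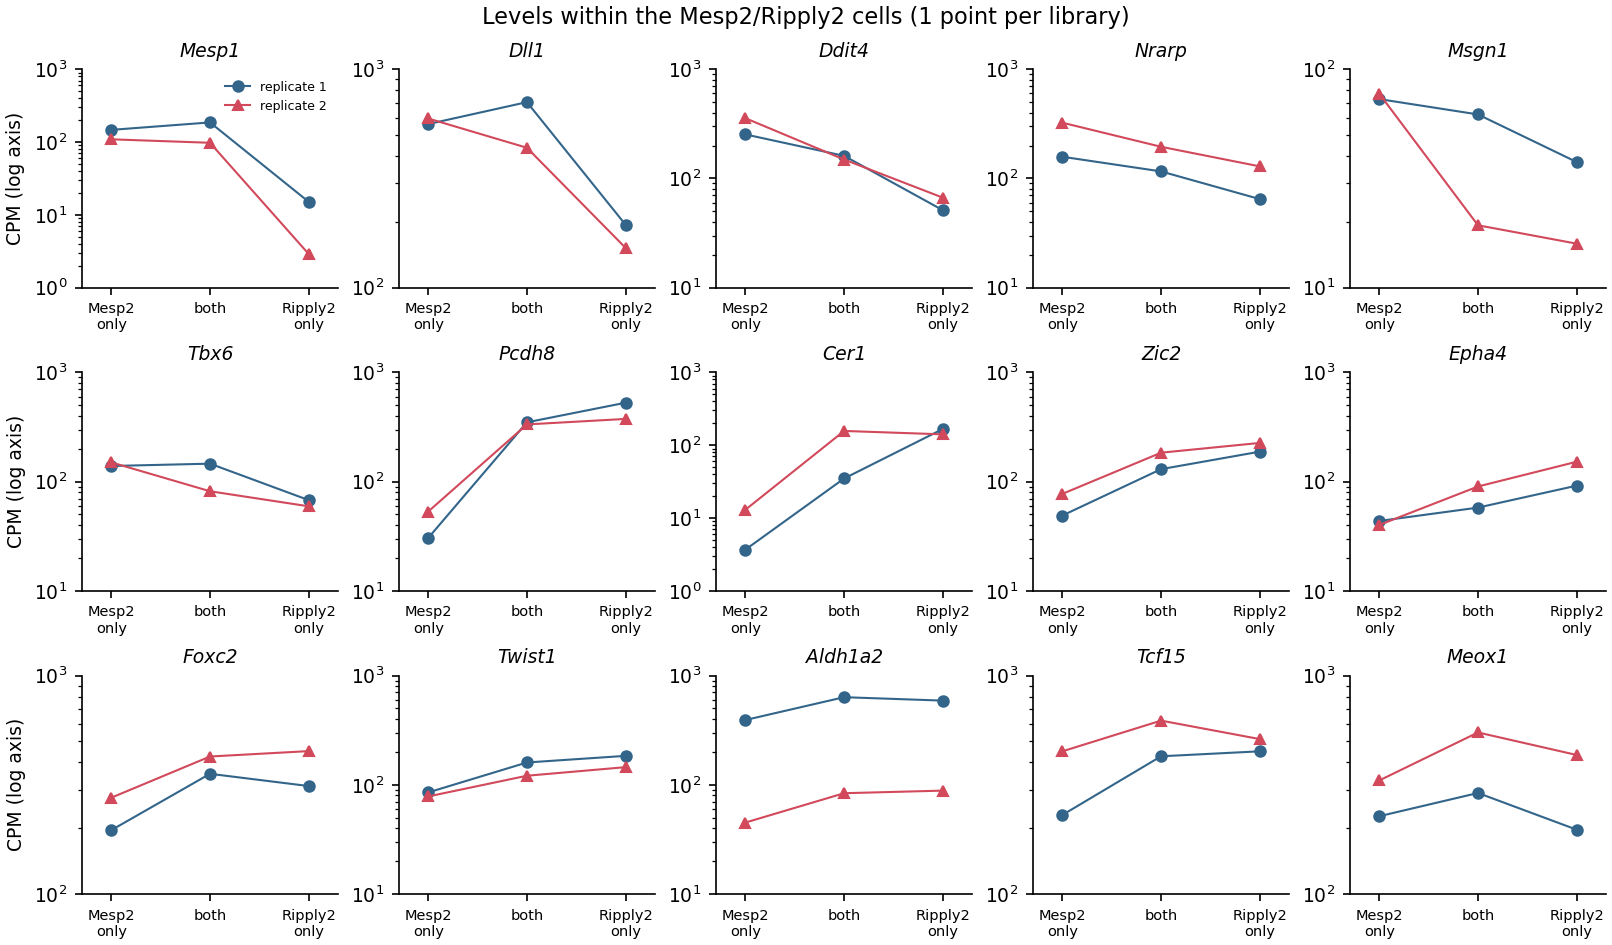
CPM (log axes that differ between panels) of 15 genes in Mesp2-only cells, cells with both RNAs and Ripply2-only cells, 1 point per library (circles replicate 1, triangles replicate 2). Mesp1 (147 and 109, then 15.1 and 2.90), Dll1 and Ddit4 are lower in Ripply2-only than in Mesp2-only cells. Pcdh8 (30.5 and 53.2, then 528 and 375), Cer1 and Zic2 are higher. Cells with both RNAs do not always lie between: Mesp1 in replicate 1 and Cer1 in replicate 2 are highest there.

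Further genes were named by the same rule. Meox2 (21.1 and 30.4 CPM in Ripply2-only cells), Ehd3 (30.1 and 23.2), Rflna (28.6 and 23.2), Abca1 (25.6 and 33.3) and Zbtb18 (34.6 and 37.7) were higher by between 1.74 and 2.47 on the log2 scale. With a gate of 4 UMIs the calls of Ehd3 (2.26), Rflna (1.76), Abca1 (1.75), Zbtb18 (1.53) and Sv2b (-1.23) were lost. Foxb1, a forkhead factor, was at 42.1 and 21.7 against 123 and 112 (-1.79 ± 0.24, adjusted p = 0.000133), Ccn1, a matricellular protein, at 24.1 and 11.6 against 105 and 53.2 (-2.03 ± 0.25, adjusted p = 4.95e-05), and Sv2b, a vesicle protein, at 4.52 and 5.80 against 25.7 and 20.1. The lower genes also included the globins Hba-x and Hbb-bh1, for which 1 Mesp2-only cell of replicate 2 held 2092 of 2126 Hba-x UMIs and 1728 of 1748 Hbb-bh1 UMIs, with 0 in replicate 1. DESeq2 called 14 genes higher and 9 lower, all of them also called in the main fit. It gave no adjusted p to 5062 genes of this comparison and could not call those. After thinning 7 and 7 were called, 4 and 6 of them shared with the main fit. With a gate of 4 UMIs there were 24 and 17, of which 21 and 11 were shared. Genes outside the naming rule here, such as Notch1, Notch2, Nrarp, Twist1 and Tbx6, were not followed singly through these alternatives. Scrublet had marked 21.4% and 4.69% of Mesp2-only and 5.88% and 4.88% of Ripply2-only cells.

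Markers of other cell types were counted in the Mesp2/Ripply2 cells as well. Summed over 7 endothelial markers they gave 33.4 and 60.0 CPM (Tek at 0 in replicate 1), against 40.7 and 46.0 in posterior and 54.8 and 54.0 in somite cells. The 6 blood markers summed to 2.40 and 1737 CPM, against 3.02 and 1967 in posterior and 3.40 and 2640 in somite cells. In replicate 2 few barcodes carried them: 2 of 157 Mesp2/Ripply2, 8 of 888 posterior and 11 of 537 somite cells had at least 5 blood UMIs, and the Mesp2-only cell described above held most of the 4549 in Mesp2/Ripply2 cells. The 6 endoderm markers gave 117 and 61.1 CPM, against 153 and 46.1 in posterior and 163 and 39.9 in somite cells, and the 6 surface ectoderm markers 283 and 144, against 337 and 146 and 433 and 114. The 5 notochord markers gave 59.8 and 31.3 CPM, between 142 and 146 in posterior and 37.1 and 17.4 in somite cells, with Noto at 0 in replicate 2. The 4 caudal epiblast markers gave 168 and 56.5, against 298 and 343 in posterior and 103 and 65.8 in somite cells. Neural markers summed to 37.1 and 11.8 CPM (Sox1 at 0 in replicate 2), lateral plate markers to 112 and 89.8, intermediate mesoderm markers to 71.6 and 30.2 (Wt1 at 0 in both) and germ cell markers to 3.20 and 0.382 (Dppa3 and Nanos3 at 0 in both). The part of these cell types in the results was not tested.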

How the data were processed

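The files the authors deposited hold UMI counts for each gene in each barcode. Per the submitters' processing notes, Cell Ranger 6.1.1 and mm10 were used. The sources do not state the annotation or how barcodes were called. The 32286 features include 1 custom eGFP sequence. Replicates 1 and 2 held 295866003 and 150964773 UMIs in 30449 and 18245 barcodes. The members, neighbours and gene lists were chosen with earlier results of these data known. UMIs were summed per class and library and fitted with edgeR 4.0.16 (TMM, filterByExpr, quasi-likelihood, prior count 2, library as block, 2-sided). Posterior, somite and Mesp2/Ripply2 cells shared 1 fit and the subsets of Mesp2/Ripply2 cells another. The library pairs the classes because each class was drawn from the same 2 libraries.

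Named genes were the 10 largest log2 fold changes in each direction against posterior and against somite cells (8 within the Mesp2/Ripply2 cells; 10 above and 5 below both neighbours, by the smaller fold), past the test, with the same sign in both libraries and at least 20 CPM in the higher class of each. All boundary, polarity, Notch and clock genes and up to 4 genes of each other list with the lowest adjusted p were added. Other genes of the lists are named where they make up a count. Some genes that the rule names are not reported here. Shares at equal depth used cells thinned at random to 5000 UMIs, leaving out shallower ones (7 and 3 Mesp2/Ripply2, 38 and 19 posterior, 37 and 18 somite and 13 and 16 background cells). Marked doublets (Scrublet in Scanpy 1.11.5) were kept in the main analysis. Gene positions come from GENCODE M21, and the mm10 names matched GRCm38. DESeq2 1.42.0 was an alternative, beside other filters, gates and depths.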

Additional observations from a re-analysis of the deposited data

Results flagged for a closer look

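Barcodes with under 0.3% mitochondrial UMIs were left out of the main comparisons and entered only the alternative with no lower mitochondrial bound. Of 11204 such barcodes that passed the other filters in replicate 1, 111 (0.991%) met the gate of 2 Mesp2 and Ripply2 UMIs. In replicate 2, 72 of 5166 (1.39%) did, and the shares among kept barcodes were 1.67% and 1.89%. The median depth of the low-mitochondrial barcodes that met the gate was 6543 and 6006.5 UMIs, against 17664.5 and 15603 in the Mesp2/Ripply2 cells.

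The custom eGFP sequence, which no comparison used, had a UMI in 8 (4.26%) of the Mesp2/Ripply2 cells of replicate 1 and 10 (6.37%) of replicate 2. Among all kept barcodes the shares were 6.06% and 4.24%, and the labels describe wild-type embryos.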

How the results depend on the processing

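Of 116 single-gene results past the test, 4 turned sign in an alternative: Msgn1 between subsets with a gate of 4 UMIs (0.66), Hes7 against posterior cells (0.07) and Fgf4 over somite cells (-0.47) in matched cells, and Evx1 over somite cells after thinning (-1.67). Without 1 library 0 of them did. For genes named by fold change this was fixed in advance, since the rule required the same sign in both libraries. Of 70 results not past the test, 27 turned sign in an alternative, among them Cer1 over somite cells, which passed in matched cells (0.93), and 15 without 1 library, among them Nrarp against posterior cells (-0.36 and 0.51). The cause was not tested. Leaving out the library block (no replicate block) reduced the calls to 15 higher and 1 lower against posterior cells, 20 and 6 against somite cells, 3 and 0 against both, and 1 and 1 within the cells. Without a low-count filter they were 415 and 525, 399 and 424, and 97 and 41, and 64 lower within the cells. In matched cells, which are fewer, they were 104 and 71 against posterior and 119 and 72 against somite cells. After thinning to 5000 UMIs they were 96 and 75 against somite cells, 33 higher than both, and 7 and 7 within the cells. Genes below both numbered 14 with a gate of 4 UMIs, 9 without marked doublets, 8 with no lower mitochondrial bound and 10 among paraxial barcodes only, an alternative chosen after seeing the data. Within the cells DESeq2 called 14 and 9 and the gate of 4 UMIs 24 and 17, while 58 and 54 genes were lower without marked doublets and with no lower mitochondrial bound. DESeq2 gave no adjusted p to 5062 genes of the comparison within the cells, among them 9 of the named results, all past the edgeR test. The share of Mesp2/Ripply2 cells, 1.78% on average, was 1.02% after thinning, 1.52% with no lower mitochondrial bound, and 1.67% to 1.89% without 1 library. Counts of genes could not be refitted without 1 library, since no residual degrees of freedom remain. The 34 and 41 Ripply2-only cells limit what the comparison within the cells can detect.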
